A study of Mus musculus with 8 samples.

Results

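Interferon-induced genes were followed in mouse hearts given the anthracycline doxorubicin (DOX) or saline. The 39 genes were chosen by name, from a list of genes that cells switch on when they sense interferon. The choice was made with earlier results of these data known, so counts of members set beside all genes are descriptive. Every probe set whose platform gene symbol is one of those names was taken. A probe set is a group of short probes that read 1 transcript. A probe set was counted as expressed when its deposited signal reached the median of the array on at least 2 of the 8 arrays, and 36 of the 39 genes had such a probe set, among 13008 genes with an expressed probe set in the whole series. The hearts came from male mice aged 6 to 8 weeks. Mice were wild type (MT+/+) or null for metallothionein I and II (MT-/-), which bind zinc and other metals, and each received a single intraperitoneal dose of 15 mg/kg DOX or an equal volume of saline. Hearts were collected on day 4. The 4 groups were MT+/+ saline, MT+/+ DOX, MT-/- saline and MT-/- DOX, each with 2 arrays that the labels call biological replicates; the sources used here give neither the strain nor the allele, nor whether an array holds 1 heart or a pool.

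Interferons are secreted proteins that warn neighbouring cells of infection. Type I interferons act through the receptor chains IFNAR1 and IFNAR2 and interferon gamma through IFNGR1 and IFNGR2. The receptors activate JAK kinases and STAT proteins. A complex that holds STAT2 and IRF9 binds the interferon-stimulated response element (ISRE), and the interferon gamma pathway acts on the gamma-activated site (GAS). The genes switched on in this way sense viral nucleic acid, block viral replication, restrain the response itself or feed peptides to class I molecules. Most cell types can express them, in the heart macrophages, endothelial cells, fibroblasts and cardiomyocytes.

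Promoters of 29 of the 39 genes were found in the RefSeq table of build GRCm38.p6, 35 promoters in all. The 250 bases before each start were searched on both strands for a shortened ISRE, GAAANNGAA, and for the GAS, TTCNNNGAA, where N is any base. The ISRE letters occurred before 12 of the 29 genes (41.4%), against 8.18% of all 27025 genes with a promoter in the table, and the GAS letters before 7 (24.1%), against 8.13%. In 1 promoter, that of Bst2, matches of both motifs shared bases. The 6 windows below show where the letters lie in front of genes whose signals are described further on. Each is 60 bases, written 5′ to 3′ along the gene, and capitals mark the matches to the motif named on its line. All the ISRE matches shown lie on the opposite strand and so appear as the reverse complement of the letters searched.
Isg20, GAS, chr7:78913325-78913384, plus strand: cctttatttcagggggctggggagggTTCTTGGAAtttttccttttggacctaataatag
Gbp2, ISRE core, chr3:142620579-142620638, plus strand: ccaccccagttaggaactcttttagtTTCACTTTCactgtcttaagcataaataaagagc
Gbp3, ISRE core, chr3:142559980-142560039, plus strand: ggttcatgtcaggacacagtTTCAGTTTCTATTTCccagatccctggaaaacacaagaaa
Rsad2, ISRE core, chr12:26456538-26456597, minus strand: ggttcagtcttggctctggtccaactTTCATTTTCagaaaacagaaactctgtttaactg
Ifit1, ISRE core, chr19:34640779-34640838, plus strand: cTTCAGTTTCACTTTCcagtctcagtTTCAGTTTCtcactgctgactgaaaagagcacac
Ifit3, ISRE core, chr19:34583401-34583460, plus strand: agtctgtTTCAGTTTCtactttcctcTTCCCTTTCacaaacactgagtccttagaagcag
The window of Ifit1 holds 3 ISRE matches, those of Ifit3 and Gbp3 hold 2 each, and some of them overlap. A match is a run of letters and not a measured binding site.

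1 array stood apart for these genes. MT+/+ saline 1 was the highest of the 8 arrays for 33 of the 36 genes, whereas 20.3% of all genes were highest there. On a normalized log2 scale (quantile-normalized signal plus 16) the median of the 36 genes lay 0.58 above their own means on MT+/+ saline 1 and 0.21 above on MT+/+ saline 2. The other 6 arrays had medians of -0.20 and 0.00 (MT+/+ DOX), -0.01 and -0.06 (MT-/- saline) and -0.28 and -0.34 (MT-/- DOX). Within the MT+/+ saline group, replicate 1 exceeded replicate 2 for 35 of 36 genes, with a median gap of 0.34 against -0.01 over all genes, and Igtp had the widest gap, with signals of 1630.4 and 585. The gap was of the opposite sign in the MT+/+ DOX pair (-0.23) and small in the MT-/- saline pair (0.01) and the MT-/- DOX pair (0.10). The counts of called members and the calls below are therefore given with and without it, and the averaged change of every member without it is in the plot of changes with and without that array.

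**Figure D1:**
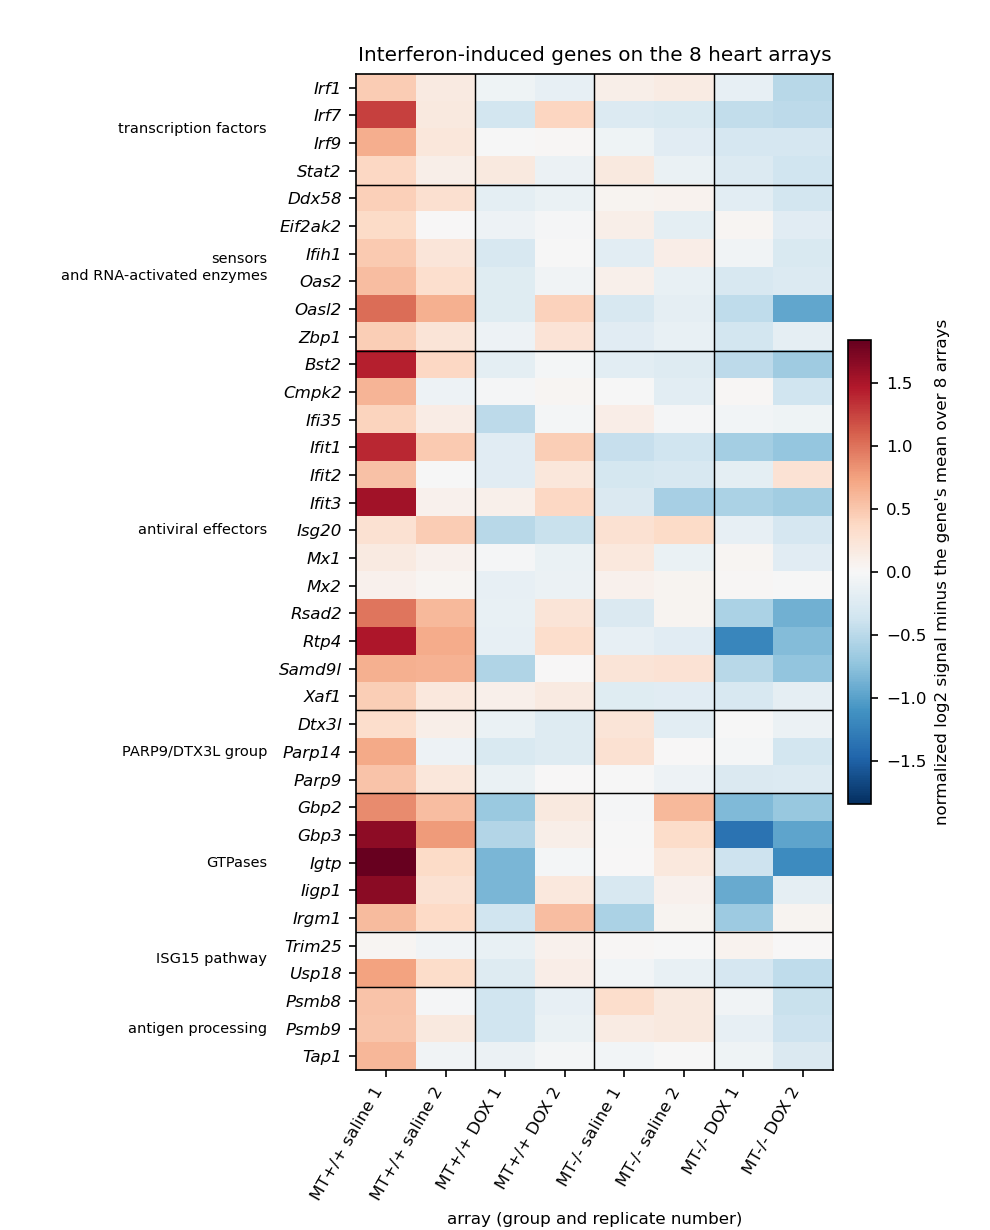
Normalized log2 signal of the 36 expressed interferon-induced genes (rows, by role) on the 8 arrays (columns), as the deviation from each gene's mean over the arrays (red higher, blue lower). MT+/+ saline 1 is the highest array for 33 genes, and the lowest values lie mostly on the MT-/- DOX arrays, where replicate 2 is lowest for 19 genes and replicate 1 for 10.

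**Figure D2:**
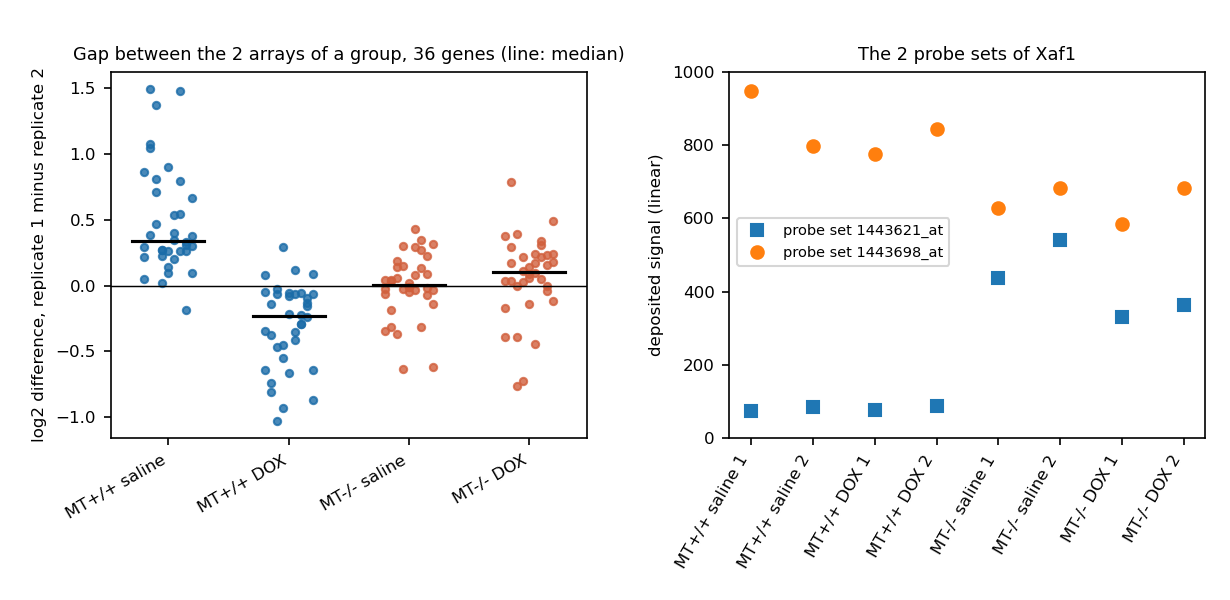
Left, the log2 difference between replicate 1 and replicate 2 of each group for the 36 genes (points; line, median): the MT+/+ saline median is 0.34, and those of the other groups are -0.23, 0.01 and 0.10. Right, the deposited signal of the 2 expressed Xaf1 probe sets on each array: one is below 90 on all 4 MT+/+ arrays and above 330 on all 4 MT-/- arrays, and the other is lower on the MT-/- arrays.

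Array medians ran from 80.03 to 87.4, and arrays of a group correlated at 0.976 to 0.984 across genes. Mt1, the targeted gene with the stronger signal, read 3722 to 9285 on the MT+/+ arrays and 4667 to 12850 on those labelled MT-/-, and Mt2 read 452 to 2732 and 968 to 2218. A second Mt1 probe set read 63.4 to 103 over all 8 arrays, near the array medians. Averaged over treatments, the brighter Mt1 probe set was higher on the arrays labelled MT-/- by a log2 difference of 0.50 (limma adjusted p = 0.0425). The difference of 0.58 for Mt2 did not pass (limma adjusted p = 0.301). Signal of the brighter probe sets was thus present on the arrays labelled MT-/-. Whether these probes lie in an altered part of either gene is not given, so the signal does not check the labels. The genotype is used below as labelled.

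After DOX some of the interferon-induced genes were called lower, and none was called higher. A gene was called when its adjusted p was below 0.05 (limma, Benjamini-Hochberg over all expressed probe sets). Averaged over both genotypes, 13 of 36 members were called lower, against 7.81% of all genes, and 0 were called higher, against 6.98%. The change was negative for 34 of 36 members, with a median of -0.42 log2 units against -0.01 over all genes. Those called lower were Gbp3, Igtp, Gbp2, Rtp4, Samd9l, Isg20, Rsad2, Oasl2, Psmb9, Usp18, Irf1, Ddx58 and Oas2. In deposited signal, all 4 DOX arrays lay below all 4 saline arrays for 10 members, as they did for 9.82% of all genes. The 10 were Ddx58, Ifi35, Igtp, Irf1, Isg20, Mx2, Oas2, Psmb8, Psmb9 and Samd9l. Counts of genes whose arrays did not overlap, here and below, use deposited signals and not the normalized scale of the fit. In whole-heart RNA, fewer cells of a type and less RNA per cell cannot be told apart.

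The size of this result depended on single arrays. Without MT+/+ saline 1, 6 members were called lower (Bst2, Ddx58, Gbp3, Isg20, Rtp4 and Samd9l), against 5.56% of all genes, the median was -0.26, and 32 of 36 changes were negative. Without MT+/+ saline 2 it was 22 (5.09% of all genes lower), without MT+/+ DOX 1 it was 5 (5.47%), without MT-/- saline 1 or MT-/- saline 2 it was 5 each (4.11% and 4.46%), and without MT-/- DOX 2 it was 6 (5.30%). Gbp3, Isg20 and Samd9l were called whichever array was left out, with largest adjusted p values of 0.0212, 0.0102 and 0.0147 (limma). Gbp2 was lost only without MT+/+ saline 1 (0.0504). The 10 members with all DOX arrays below the saline arrays were the same 10 when MT+/+ saline 1 was set aside, where 12.7% of all genes met that rule. With the replicate number as a block, 19 members were called lower, against 14.8% of all genes: the same 13 and Bst2, Irf9, Parp14, Parp9, Psmb8 and Stat2. Adjusted p values of the members below are without the block unless it is named.

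**Figure D3:**
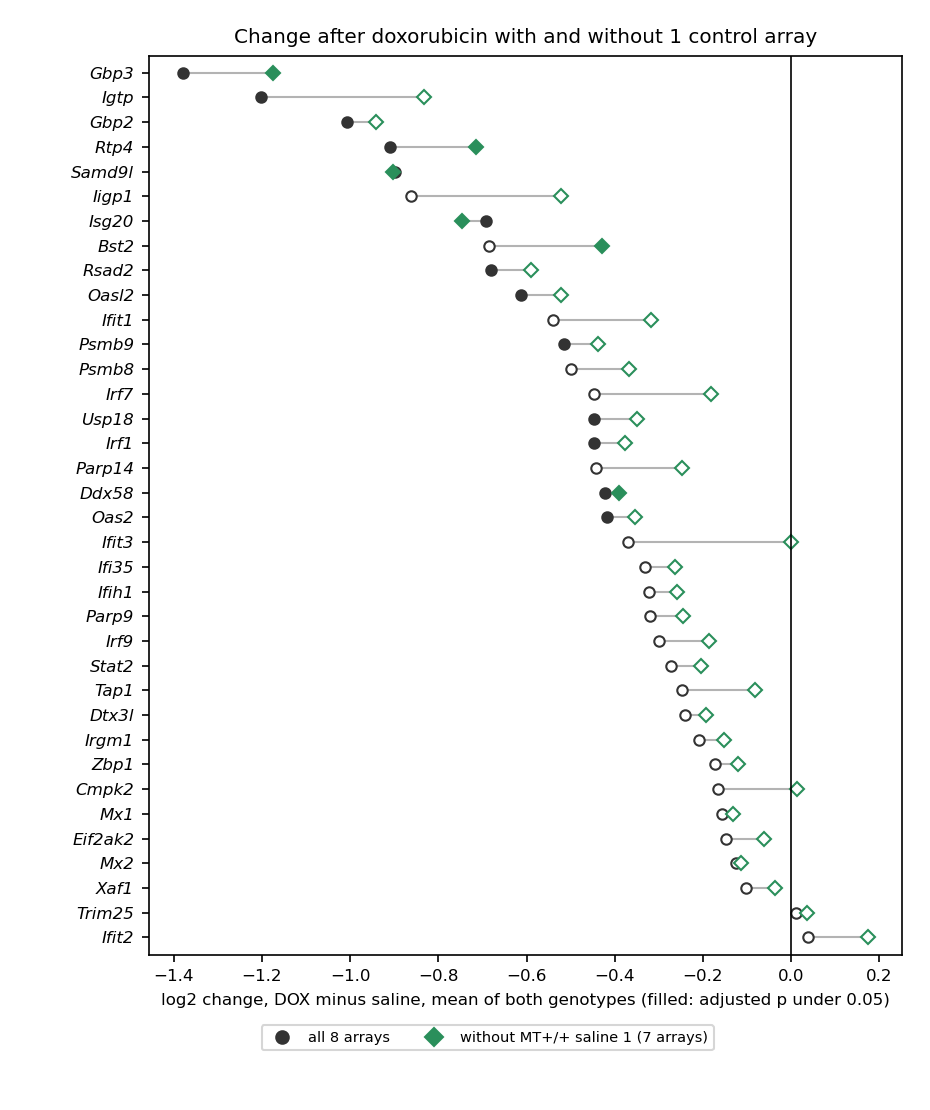
Averaged log2 change after DOX for the 36 genes with all 8 arrays (circles) and without MT+/+ saline 1 (diamonds), filled where the adjusted p is below 0.05. With all arrays 13 genes are filled and without that array 6, and the median moves from -0.42 to -0.26.

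The signals of the members follow by role, in the order MT+/+ saline, MT+/+ DOX, MT-/- saline and MT-/- DOX, replicate 1 before replicate 2. Levels are deposited signals, which are not comparable between probe sets, and changes are averaged log2 differences between DOX and saline with the standard error of the fit (n = 4 arrays each).

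Among the 4 transcription factors, Irf1, which interferon gamma induces through its GAS, was called lower. The gene read 550.1 and 457 in MT+/+ saline hearts, 392 and 380.4 in MT+/+ DOX, 452 and 505 in MT-/- saline, and 374 and 296 in MT-/- DOX. It fell by 0.45 on the log2 scale (SE 0.12, limma adjusted p = 0.0391; 0.122 without MT+/+ saline 1), and every DOX array was below every saline array. Irf7, the master regulator of type I interferon production, read 459 and 215 in MT+/+ saline hearts, 149 and 265 in MT+/+ DOX, 159 and 161 in MT-/- saline, and 136 and 133 in MT-/- DOX. MT+/+ saline 1 was the highest array, MT+/+ DOX 2 the next, and the change of -0.45 (SE 0.23) did not pass the test (adjusted p = 0.267, limma) and was -0.18 without MT+/+ saline 1. Irf9 and Stat2, whose products belong to the ISRE-binding complex, had changes of -0.30 and -0.27 that passed only with the replicate block (adjusted p = 0.04 and 0.0175, limma).

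Of the 7 sensors and RNA-activated enzymes, 6 were expressed and 3 were called lower. Ddx58, which encodes the RNA sensor RIG-I, read 263 and 233 in MT+/+ saline hearts, 166 and 179 in MT+/+ DOX, 198 and 211 in MT-/- saline, and 165 and 149 in MT-/- DOX. The DOX arrays were all below the saline arrays, and Ddx58 fell by 0.42 (SE 0.08, limma adjusted p = 0.0129; 0.0448 without MT+/+ saline 1). Oas2, which makes the second messenger 2-5A on binding double-stranded RNA, read 605 and 509.6 in MT+/+ saline hearts, 358 and 413 in MT+/+ DOX, 451 and 417 in MT-/- saline, and 342 and 367 in MT-/- DOX. It fell by 0.42 (SE 0.11, limma adjusted p = 0.0354). The DOX and saline arrays did not overlap in deposited signal, but on the normalized log2 scale MT+/+ DOX 2 (8.73) was above MT-/- saline 2 (8.65). Oas2 was not called without MT+/+ saline 1. Oasl2, a relative of the OAS enzymes, read 254 and 189.8 in MT+/+ saline hearts, 97.9 and 165 in MT+/+ DOX, 91.1 and 104 in MT-/- saline, and 78.7 and 52.1 in MT-/- DOX. It fell by 0.61 (SE 0.17, limma adjusted p = 0.0455; 0.136 without MT+/+ saline 1). With no filter on low signals this call and those of Irf1 and Usp18 were lost. It was also lost with deposited scaling, with median centring and without the variance trend, and the MT-/- saline arrays were below MT+/+ DOX 2. Ifih1, which encodes the RNA sensor MDA5, had a change of -0.32, the Z-nucleic acid sensor Zbp1 one of -0.17, and Eif2ak2, which encodes the kinase PKR that stops translation, one of -0.15; none passed the test.

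The antiviral effectors held 4 calls among 13 expressed genes. Isg20, an exonuclease that degrades RNA, read 171 and 188 in MT+/+ saline hearts, 89.7 and 99.4 in MT+/+ DOX, 165 and 183 in MT-/- saline, and 118 and 104 in MT-/- DOX. The saline arrays were all between 165 and 188 and the DOX arrays between 89.7 and 118, and MT+/+ saline 1 was not the highest. Isg20 fell by 0.69 (SE 0.09, limma adjusted p = 0.00166; 0.00445 without MT+/+ saline 1). Samd9l, which restrains cell growth and poxvirus replication, read 331 and 327 in MT+/+ saline hearts, 139.6 and 218 in MT+/+ DOX, 251 and 276 in MT-/- saline, and 143 and 120.4 in MT-/- DOX. The 2 MT+/+ saline arrays agreed closely, and Samd9l fell by 0.90 (SE 0.13, limma adjusted p = 0.00306; 0.0128 without MT+/+ saline 1).

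Rtp4, a chaperone that carries receptors to the cell surface, read 944 and 545 in MT+/+ saline hearts, 309 and 448 in MT+/+ DOX, 310.2 and 319.7 in MT-/- saline, and 142 and 195 in MT-/- DOX. It fell by 0.91 (SE 0.19, limma adjusted p = 0.0162; 0.0336 without MT+/+ saline 1), and MT+/+ DOX 2 was above both MT-/- saline arrays. Rsad2, which encodes viperin, read 807 and 628 in MT+/+ saline hearts, 384 and 517 in MT+/+ DOX, 352 and 481 in MT-/- saline, and 277 and 229 in MT-/- DOX. It fell by 0.68 (SE 0.15, limma adjusted p = 0.0166; 0.0559 without MT+/+ saline 1). Bst2, the tethering protein tetherin, read 700.2 and 342 in MT+/+ saline hearts, 229.9 and 265 in MT+/+ DOX, 230.4 and 237 in MT-/- saline, and 186 and 165 in MT-/- DOX. Its change of -0.69 (SE 0.20) gave an adjusted p of 0.0542 with all arrays and passed at -0.43 and 0.0459 without MT+/+ saline 1 and at 0.0146 with the replicate block (limma).

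The IFIT proteins bind viral RNA and block its translation, and none of their genes passed the test. Ifit1 read 371 and 195 in MT+/+ saline hearts, 116 and 199 in MT+/+ DOX, 97.4 and 103 in MT-/- saline, and 81.8 and 76.3 in MT-/- DOX, a change of -0.54 (SE 0.20; -0.32 without MT+/+ saline 1). Ifit3 read 985 and 355 in MT+/+ saline hearts, 370.2 and 470.1 in MT+/+ DOX, 283 and 234 in MT-/- saline, and 227 and 224 in MT-/- DOX. Its change of -0.37 (SE 0.28) came to 0.00 without MT+/+ saline 1, the array on which it was 2 or more times every other one. Ifit2 differed in sign from its neighbours on chromosome 19: its averaged change was 0.04, with -0.27 in MT+/+ and 0.35 in MT-/- hearts, and the interaction did not pass (adjusted p = 1, limma). The remaining effectors had changes between -0.33 and -0.10 and did not pass: Ifi35 (-0.33), Cmpk2 (-0.17), Mx1 (-0.16), Mx2 (-0.13) and Xaf1 (-0.10). For Cmpk2, a mitochondrial nucleotide kinase that lies beside Rsad2 on chromosome 12, the second expressed probe set fell by 0.60 (adjusted p = 0.0111, limma), so its probe sets disagree.

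Parp9, Parp14 and Dtx3l, which act in ADP-ribosylation and ubiquitin tagging downstream of interferon, had changes of -0.32, -0.44 and -0.24. None of the 3 passed the test, and with the replicate block Parp9 and Parp14 did (adjusted p = 0.0243 and 0.0233, limma).

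The interferon-induced GTPases, which coat and disrupt vacuoles that hold microbes, had the widest changes, with a median of -1.01 over 5 genes and 3 of them called lower. Gbp3 read 738 and 411 in MT+/+ saline hearts, 158 and 264 in MT+/+ DOX, 236 and 329 in MT-/- saline, and 81.5 and 114 in MT-/- DOX. It fell by 1.38 (SE 0.22, limma adjusted p = 0.00498; 0.0115 without MT+/+ saline 1), the widest change of any member, and both MT-/- DOX arrays were below every other array. Gbp2, its neighbour on chromosome 3, read 569.8 and 469 in MT+/+ saline hearts, 191 and 374 in MT+/+ DOX, 313 and 538 in MT-/- saline, and 175 and 194 in MT-/- DOX. It fell by 1.01 (SE 0.21, limma adjusted p = 0.0145), and MT+/+ DOX 2 was above MT-/- saline 1. A second expressed probe set of Gbp2 also fell by 1.01 (limma adjusted p = 0.0108), with all DOX arrays below all saline arrays. In MT-/- hearts that probe set was called lower (-1.14, limma adjusted p = 0.0458), while the one that stands for the gene was not (-1.04, limma adjusted p = 0.0767). Igtp, also called Irgm3, read 1630.4 and 585 in MT+/+ saline hearts, 256 and 478 in MT+/+ DOX, 484 and 601 in MT-/- saline, and 362 and 209 in MT-/- DOX. MT+/+ saline 1 was more than 2 times the next array, and Igtp fell by 1.20 (SE 0.33, limma adjusted p = 0.0448; 0.0869 without that array).

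Iigp1 encodes an effector GTPase of the same family. It read 3211 and 1219 in MT+/+ saline hearts, 574 and 1225 in MT+/+ DOX, 847 and 1199.8 in MT-/- saline, and 539 and 982 in MT-/- DOX. Its change of -0.86 (SE 0.34; -0.52 without MT+/+ saline 1) did not pass, and MT+/+ saline 1 was again more than 2 times the next array. Irgm1, which regulates the other GTPases of the family, read 455 and 395 in MT+/+ saline hearts, 236 and 483 in MT+/+ DOX, 202 and 349 in MT-/- saline, and 190.4 and 338 in MT-/- DOX. Replicate 2 was above replicate 1 in every group but MT+/+ saline, and the change of -0.21 (SE 0.25) did not pass.

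Usp18, which removes the ubiquitin-like protein ISG15 and damps the type I receptor, read 191 and 138 in MT+/+ saline hearts, 88.1 and 119.6 in MT+/+ DOX, 101 and 95.9 in MT-/- saline, and 81.7 and 71.3 in MT-/- DOX. It fell by 0.45 (SE 0.12, limma adjusted p = 0.0416; 0.12 without MT+/+ saline 1). Trim25, the ubiquitin ligase that activates RIG-I, was level at 0.01 and stood between 227 and 276 on all 8 arrays. Among the genes for antigen processing, Psmb9, a catalytic subunit of the immunoproteasome, read 273 and 210.0 in MT+/+ saline hearts, 142 and 174 in MT+/+ DOX, 209 and 225 in MT-/- saline, and 166 and 139 in MT-/- DOX. It fell by 0.51 (SE 0.11, limma adjusted p = 0.0171; 0.0522 without MT+/+ saline 1), with no overlap between DOX and saline arrays. Its partner subunit Psmb8 had a change of -0.50 (adjusted p = 0.0514, and 0.0125 with the replicate block, limma) and the peptide transporter Tap1 one of -0.25, and neither passed without the block.

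**Figure D4:**
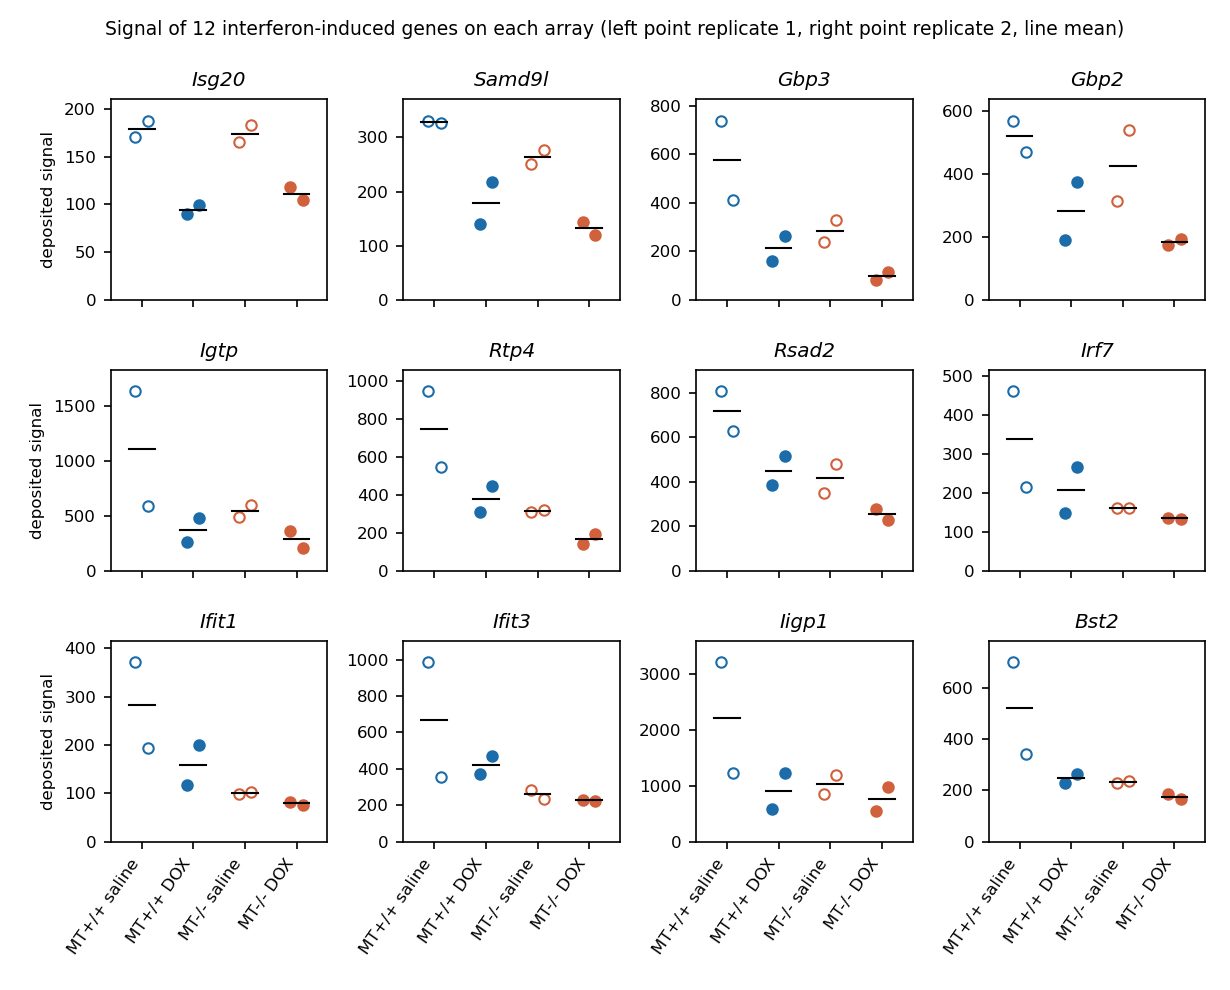
Deposited signal (linear axes from 0) of 12 interferon-induced genes in the 4 groups, with both arrays of a group as points (open saline, filled DOX; blue MT+/+, orange MT-/-) and their mean as a line. Isg20, Samd9l and Igtp have all DOX points below all saline points, and in Igtp, Iigp1, Ifit3 and Bst2 MT+/+ saline 1 lies far above the other 7 arrays.

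Dhx58, which encodes the regulator LGP2, had 3 probe sets and none was expressed; its highest stood at percentile 53.4 of an array. Ifi44 had no probe set with that symbol. Isg15 was read only by a probe set that the annotation also gives to a second gene, so no value is given for it. Of the 36 expressed members, 32 were at or above the array median on all 8 arrays. Mx1 (3 arrays), Oasl2 (6), Ifit1 (7) and Usp18 (7) were the exceptions. Mx1 passed the filter through saline arrays alone, and its DOX signals of 65.6 to 79.8 lie below every array median. The filter thus favoured a fall for Mx1, which is included in the counts of negative changes. With a filter on all 8 arrays, which leaves Mx1 out, 30 of 32 averaged changes were negative.

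Within single genotypes the same direction gave few calls. In MT+/+ hearts all 36 changes were negative, with a median of -0.53 against -0.02 over all genes, and 2 members were called lower (1.45% of all genes) and 0 higher (1.24%). Both DOX arrays were below both saline arrays for 23 members, against 22.0% of all genes. The called genes were Isg20, which fell by 0.83 (SE 0.12, limma adjusted p = 0.0133), and Samd9l, which fell by 0.92 (SE 0.18, limma adjusted p = 0.0398). Without MT+/+ saline 1 the call of Samd9l was lost, the median was -0.30, and 33 of 36 changes were negative, while 23 members still had both DOX arrays below MT+/+ saline 2, as had 31.3% of all genes. Counts ranged from 0 to 2 when single arrays were left out, with 0 without MT+/+ DOX 1 and 1 without either MT+/+ saline array, MT+/+ DOX 2 or either MT-/- saline array. The 1 call without MT+/+ saline 2 was Bst2, neither of the original calls. With the replicate block, 11 members were called lower, against 5.62% of all genes, with Bst2, Ddx58, Gbp2, Gbp3, Oas2, Psmb9, Rsad2, Rtp4 and Usp18 added.

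In MT-/- hearts 34 of 36 changes were negative, with a median of -0.26 against 0.00, and 3 members were called lower (3.98% of all genes) and 0 higher (2.76%). Gbp3 fell by 1.32 (SE 0.31, limma adjusted p = 0.0415), Samd9l by 0.88 (SE 0.18, limma adjusted p = 0.0267) and Isg20 by 0.55 (SE 0.12, limma adjusted p = 0.0342). Both DOX arrays were below both saline arrays for 25 members, against 28.4% of all genes. The 3 calls were the same without MT+/+ saline 1, and no member was called without MT-/- saline 1, MT-/- saline 2 or MT-/- DOX 2. Gbp3 was not called with a pseudocount of 64, nor Isg20 with no filter. With the replicate block 6 members were called lower, against 9.82% of all genes, with Gbp2, Irf1 and Stat2 added.

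The change after DOX was not shown to differ between the genotypes. The interaction was called for 0 members and for 0% of all genes in either direction, and 0 members had an unadjusted p below 0.05 (limma), against 2.5% of all genes. The difference between the genotypes was positive for 33 of 36 members, that is, less negative in MT-/- hearts, with a median of 0.21. Without MT+/+ saline 1 that median was 0.03 and 15 of 36 were negative.

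**Figure D5:**
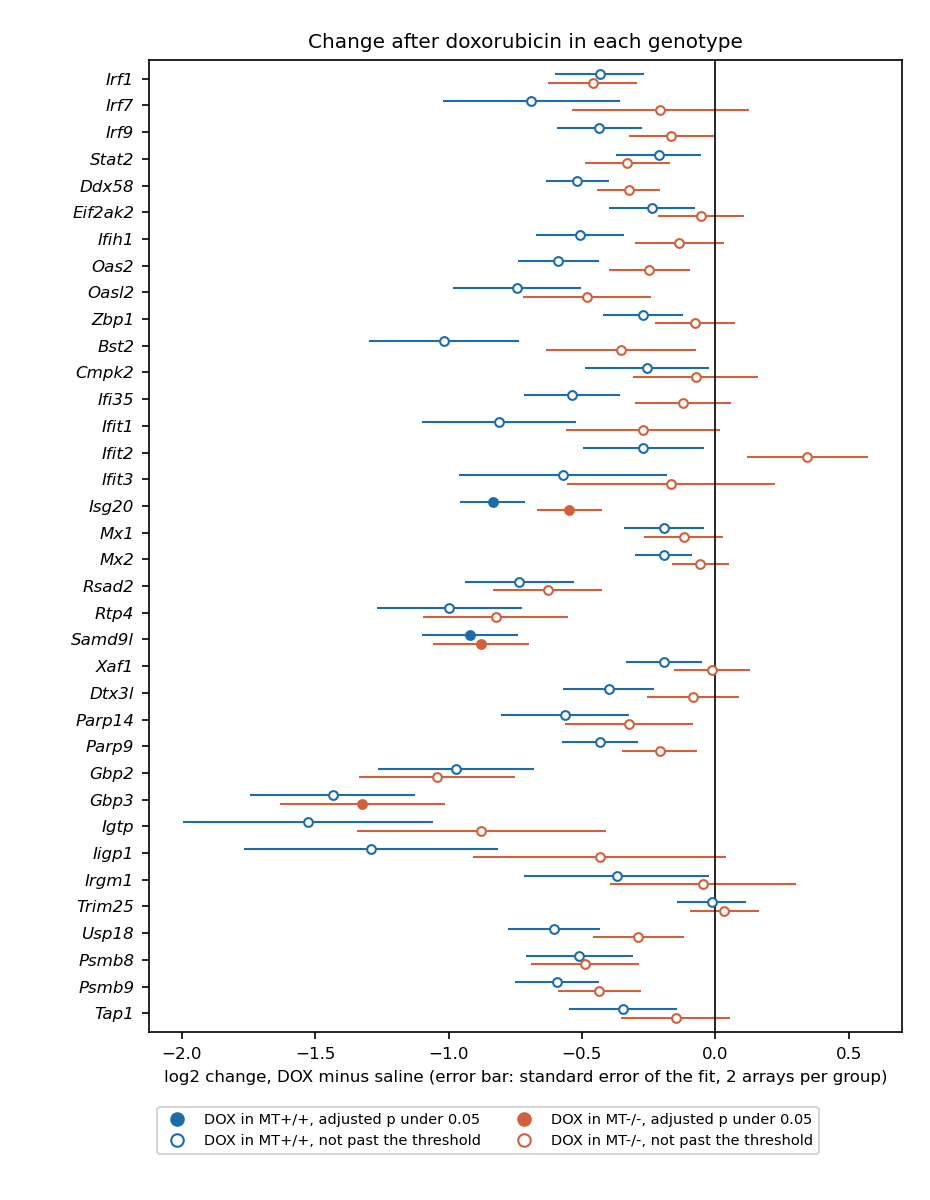
Log2 change after DOX in MT+/+ (blue) and MT-/- hearts (orange) for the 36 genes, with the standard error of the fit, filled where the adjusted p is below 0.05. All 36 MT+/+ points and 34 of 36 MT-/- points are below 0, and Isg20, Samd9l and Gbp3 hold the filled points.

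Hearts labelled MT-/- read below MT+/+ hearts for most members, and few differences passed the test. Averaged over treatments, 3 of 36 were called lower on the arrays labelled MT-/- (0.484% of all genes) and 0 higher (0.400%), with 32 of 36 differences negative and a median of -0.30 against -0.01. Rtp4 was lower by a log2 difference of -1.18 (SE 0.19, limma adjusted p = 0.0341), Rsad2 by -0.84 (SE 0.15, limma adjusted p = 0.0406) and Oasl2 by -0.94 (SE 0.17, limma adjusted p = 0.0485). Without MT+/+ saline 1 none of them passed (adjusted p = 0.0679, 0.149 and 0.177, limma), and the median was -0.23. The count was also 0 without MT+/+ DOX 2, either MT-/- saline array or MT-/- DOX 2, it was 1 without MT+/+ DOX 1 or MT-/- DOX 1, and it was 4 without MT+/+ saline 2. Signals as deposited and signals centred on array medians left Rtp4 alone. Oasl2 was also lost with a pseudocount of 1 and without the variance trend, and Rsad2 with the mean of its probe sets. Rsad2 was lost whichever array was left out, and Oasl2 was also lost without MT+/+ saline 2. The other expressed probe sets of Rsad2 had differences of -0.46 and -0.60 and did not pass (limma adjusted p = 0.451 and 0.119). With the replicate block 11 members were called lower, against 2.63% of all genes, with Bst2, Gbp3, Ifit1, Ifit3, Irf9, Usp18, Xaf1 and Zbp1 added.

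Ifit1 and Ifit3 had wider differences than Rsad2 without a call. Ifit1 had a log2 difference of -1.06 (SE 0.20, limma adjusted p = 0.0606) and Ifit3 one of -1.05 (SE 0.28, limma adjusted p = 0.157). The differences were -0.84 and -0.69 without MT+/+ saline 1. All 4 arrays labelled MT-/- were below all 4 MT+/+ arrays for 5 of 36 members, against 3.07% of all genes: Ifit1, Ifit3, Irf9 (-0.45), Zbp1 (-0.42) and the brighter probe set of Xaf1 (-0.45). The same 5 met that rule without MT+/+ saline 1, against 3.6% of all genes.

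Under saline the genotype difference was called for 0 members, against 0.0692% of all genes lower and 0.108% higher, and 17 members had an unadjusted p below 0.05 (limma), all lower, against 4.79% of all genes. Without MT+/+ saline 1 there were 9, all lower, against 2.12%, and the median difference went from -0.43 to -0.28. Both MT-/- arrays were below both MT+/+ arrays for 20 members, against 17.6% of all genes, and below MT+/+ saline 2 alone for 21, against 25.5%. Without MT+/+ saline 2, Bst2 and Ifit3 were called lower, against 0.0464% of all genes; MT+/+ saline 1 is then the only array of its group and is assumed to vary like the other groups. After DOX it was called for 0 members, against 0.123% lower and 0.169% higher, and 6 had an unadjusted p below 0.05 (limma), all lower, against 4.18% of all genes. Both MT-/- DOX arrays were below both MT+/+ DOX arrays for 16 members, against 18.6% of all genes, a comparison that uses no saline array. The median difference after DOX was -0.22, with 28 of 36 negative. It depended on 1 array: without MT+/+ DOX 2 the median was -0.07, with 22 of 36 negative. The saline comparison shares its MT+/+ arrays with the DOX comparison in MT+/+ hearts, so a high MT+/+ saline value enters both.

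The probe sets of Xaf1, which binds the apoptosis inhibitor XIAP, disagreed on the genotype. The dimmer one read 74.9 and 84.8 in MT+/+ saline hearts, 76.4 and 88.2 in MT+/+ DOX, 437 and 542 in MT-/- saline, and 331 and 364 in MT-/- DOX. It was higher in hearts labelled MT-/- by a log2 difference of 2.38 under saline (SE 0.13, limma adjusted p = 0.000395) and of 1.88 after DOX (SE 0.13, limma adjusted p = 0.000877). The brighter one, which stands for the gene above, read 947 and 798 in MT+/+ saline hearts, 777 and 844 in MT+/+ DOX, 628 and 684 in MT-/- saline, and 585 and 683 in MT-/- DOX, with averaged differences of -0.45 for genotype and -0.10 for DOX that did not pass.

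Likeness to Irf7 across the 8 arrays was measured by Pearson's r of log2 values, as a description of arrays that share groups and the high MT+/+ saline 1. Among members, Ifit1 was the most like it (r = 0.98), followed by Ifit3 (0.95), Usp18 (0.95) and Bst2 (0.95). In all, 18 of 35 members had r above 0.8, and 3.21% of other genes did. Without MT+/+ saline 1 the numbers were 7 members and 3.23%, and r was 0.95 for Ifit1, 0.82 for Ifit3, 0.87 for Usp18 and 0.78 for Bst2. Isg20 (0.31), Mx2 (0.23) and Trim25 (0.23) were the least like it. Outside the list, Zbtb7c (0.98), Tmem266 (0.97), Nmi (0.97), Kcnq1 (0.97) and Grin2d (0.97) were the most like it; Nmi encodes an interferon-induced partner of STAT proteins.

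The promoter letters did not separate the members that were called. The ISRE letters lay before 4 of 10 members called lower on average after DOX with a promoter in the table (40%) and before 7 of 17 that were not called (41.2%). GAS letters lay before 3 of 10 (30%) and 4 of 17 (23.5%). The ISRE-bearing genes shown above included Gbp2, Gbp3 and Rsad2, which were called lower, and Ifit1 and Ifit3, which were not.

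Other genes of the pathway were taken from lists, also chosen with earlier results of these data known. Their counts stand beside the 7.81% of all genes that were called lower and the 6.98% called higher on average after DOX. Of 20 interferon ligands, receptors and signal transducers, 11 were expressed, and 1 fell on average after DOX and 0 rose. It was Ifngr2, a chain of the interferon gamma receptor, which fell by 0.83 (limma adjusted p = 0.0281) and was not called without MT+/+ saline 1. Ifnb1, Ifng, Ifna1 and Ifna4 had no expressed probe set. Among 14 expressed restraints on the response, 3 rose and 1 fell: the ubiquitin ligase Rnf125 rose by 0.59, the STAT inhibitor Pias1 by 0.49 and the phosphatase Ptpn11 by 0.38, and the nucleotide hydrolase Samhd1 fell by 0.55. Of 14 expressed genes that sense nucleic acid upstream of interferon, 2 fell: Mavs, the adaptor of RIG-I, by 0.43 and the RNA receptor Tlr3 by 0.40.

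Of 38 further expressed interferon-induced effectors, 9 fell on average after DOX and 0 rose, with a median of -0.21, and 6 fell without MT+/+ saline 1. The 5 with the smallest p were the chemokine Cxcl9, which fell by 1.47, Lgals9 (0.83), Phf11d (1.10), the membrane protein Ifitm3 (0.59) and Pnpt1 (0.44), each named with the size of its fall on the log2 scale. Cxcl9 read 226 and 201 in MT+/+ saline hearts, 53.2 and 68.8 in MT+/+ DOX, 129.6 and 147 in MT-/- saline, and 43.9 and 45.1 in MT-/- DOX. It passed the filter through its saline arrays alone, and its DOX values lie below the array medians, so its saline and DOX arrays had to differ. Of 11 expressed genes of class I presentation, 2 fell, the proteasome activator Psme1 by 0.78 and the class I light chain B2m by 0.52. For genotype, chosen after their values were seen, Ifnar1 was higher on the arrays labelled MT-/- by 0.45 (limma adjusted p = 0.0353), and Trim30a and Trim34a were lower by -1.11 and -1.09 (0.0198 and 0.0337). None of these 3 was called without MT+/+ saline 1.

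Markers of several cell types moved with DOX beside these genes, to be read against the same shares of all genes. Of 12 macrophage markers, all expressed, 10 fell, with a median of -0.69, and 8 fell without MT+/+ saline 1; Csf1r, Adgre1, C1qa and Lyz2 were among the 10. Fcgr1 was also among them, but it passed the filter through its saline arrays alone. Its DOX signals of 71.5 to 78.4 lie below every array median, so the filter favoured its fall. Cx3cr1 and Cd163 were not called, with changes of -0.26 and 0.24, and Cd163 changed by 0.54 in MT-/- hearts. The summed signal of the 12 macrophage markers was 10386 and 12183 in MT+/+ saline hearts, 5484 and 6299 in MT+/+ DOX, 9794 and 11754 in MT-/- saline, and 6876 and 7381 in MT-/- DOX. Of 7 expressed markers of dendritic cells and MHC class II, 4 fell, all of them class II genes, with sums of 4714 and 3295, 1243 and 1128, 6034 and 7761, and 1707 and 2125 in that order, while Itgax, Siglech and Cd209a were not expressed. The other expressed markers of that list, Flt3 (0.08), Zbtb46 (0.19) and Xcr1 (-0.18), were not called. Of 9 fibroblast markers 6 fell, and of 12 endothelial markers 3 fell and 1 rose. Of 8 cardiomyocyte markers 4 fell, and of 7 neutrophil markers 3 rose. Those 3 were S100a8, S100a9 and Mmp8, with changes of -0.11, -0.20 and 0.25 in MT+/+ hearts, none called, and rises of 3.53, 2.92 and 1.09 in MT-/- hearts, and their interaction was not called (adjusted p = 1, limma). Mmp8 passed the filter through its MT-/- DOX arrays alone (125.5 and 109.2). Its signals on the other arrays, 43.1 to 70.9, lie below every array median, so the filter favoured its rise. None of 5 T and NK cell markers or 3 B cell markers was called. Between MT+/+ saline 1 and MT+/+ saline 2, the macrophage sum was lower on the first. So were the sums of the neutrophil list (1275 and 1789), the cardiomyocyte list (113255 and 115185) and the fibroblast list (16838 and 16922). The sums of the class II list (4714 and 3295), the T and NK cell list (606 and 486), the endothelial list (7966 and 6958) and the B cell list (574 and 540) were higher there. A sum follows its brightest genes, and members of a list could differ from it. Of the neutrophil list, S100a8 (136.6 and 541.2), S100a9 (161.5 and 447.6) and Mmp8 were lower on MT+/+ saline 1. Mpo, Elane, Csf3r and Cxcr2 were higher there, as were Ctss, Cx3cr1 and Fcgr1 of the macrophage list. The part of these cell types in the fall of the interferon-induced genes was not tested.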

How the data were processed

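Total RNA of 8 mouse heart samples was hybridised to Affymetrix arrays, 1 array per sample and 2 per group. The deposited intensity is 1 signal per probe set, made with GCOS 1.4 per the submitters' processing notes; the sources used here give no further normalization. Of 45037 probe sets, leaving out 64 controls, 24751 were expressed. The labels give the groups and the replicate numbers.

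Signals were quantile-normalized, raised by a pseudocount of 16 and set to log2; the pseudocount understates the change of dim probe sets. A linear model with 4 group means was fitted to the 8 arrays with limma 3.58.1 in R 4.3.3 (trend in the prior variance, 4 residual degrees of freedom), and p-values were adjusted over the 24751 probe sets. A gene was read by its expressed probe set of highest mean, and probe sets that the platform annotation gives to several symbols were left out. With 2 arrays a group the exact test cannot go below p = 0.333, so limma alone was used. The number of arrays limits the precision. The script was tested on simulated data. The named genes were every expressed member, with values on all arrays for members called in any comparison or with an averaged difference of at least 0.5. Members and lists were chosen with earlier results of these data known.

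Deviations of same-numbered arrays from their group means correlated at 0.36 to 0.54 for all pairs of groups. Same-numbered arrays thus varied together, but the labels do not say that the numbers pair the samples. The fit without the block was kept as the main one, and blocked values are given where they change a call. The alternatives were the deposited scale, median centring, pseudocounts of 1 and 64, no filter, a filter on all 8 arrays, no variance trend, the block, the mean of probe sets and leaving out each array. Promoter sequences are RefSeq's.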

Additional observations from a re-analysis of the deposited data

How the results depend on the processing

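The median averaged change of the members after DOX was negative under every alternative run. The number of members called was 13, and from 10 to 17 under the other scalings, pseudocounts, filters, variance model and the mean of probe sets; it was 19 with the replicate block and ran from 5 to 22 when single arrays were left out. The median change of -0.42 ran from -0.50 to -0.26 over those arrays and was -0.26 without MT+/+ saline 1. In MT+/+ hearts the count of 2 became 1 with deposited scaling and with median centring, 4 with the mean of probe sets and 11 with the replicate block, and ran from 0 to 2 without single arrays. In MT-/- hearts the count of 3 became 6 with the block, 2 with a pseudocount of 64 and with no filter, and ran from 0 to 3. For genotype averaged, the count of 3 became 1 with deposited scaling and with median centring and 11 with the block, was 2 with a pseudocount of 1, with the stricter filter and without the trend, and ran from 0 to 4. Genotype under saline and genotype under DOX each gained 1 call, Xaf1 higher, with the mean of its probe sets, and the first ran from 0 to 2 without single arrays. The interaction had 0 calls in every setting. The block changed no call for genotype within a treatment or for the interaction.

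Changes near 0 turned sign. Without single arrays Ifit2 ran from -0.098 to 0.17, Trim25 from -0.0445 to 0.0645, Cmpk2 from -0.344 to 0.0134, Ifit3 from -0.739 to 1e-04 and Irgm1 from -0.441 to 0.025. Trim25 was -0.0225 with the mean of its probe sets. The cause of these differences was not tested. With 2 arrays a group, whether the labels' replicates are separate hearts sets what the p-values measure.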
